A study of Homo sapiens with 8 samples.

Results

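The collagen genes were taken as all RefSeq protein-coding genes on hg38 whose symbol is COL, a number, A and a number, which gave 44 of 19970 protein-coding genes. Peaks of H3K27ac, acetylation of lysine 27 of histone 3, were collected from each gene's span and 50 kb on either side, and a peak near several collagen genes was given to the closest. After overlapping peaks of both genotypes had been merged into regions, 238 of 48662 regions belonged to the 44 genes.

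Chromatin immunoprecipitation and sequencing had been carried out in MDA-MB-231 cells, a widely used line of triple-negative breast cancer with a mesenchymal-like phenotype. The control cells (NC in the titles) carried the genotype label control, and the compared cells were labelled ARID1A knockout. ARID1A belongs to BAF, the mammalian SWI/SNF complex that moves nucleosomes. There were 8 libraries in 4 groups of 2, an input and an immunoprecipitate of each genotype, and the values used here were 2 peak lists, 1 per genotype, with 39797 peaks for the control and 42552 for the knockout. No label states a treatment, whether the knockout was 1 clone or a pool of cells, or whether the replicates were separate cultures. The labels also disagreed on the antibody: the characteristics named H3K27ac, and the extraction protocol named H3K4me3.

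Collagens are the main structural proteins of the extracellular matrix, and each molecule is a helix of α chains. Depending on the type, these chains come from a single gene or from several. The families differ in what they build: fibrils in interstitial matrix, sheets in basement membranes, beaded filaments around cells, or bridges that join fibrils to other structures. Carcinoma cells make some collagens themselves, while fibroblasts supply most of the fibrillar matrix of a tumour. H3K27ac marks active promoters and enhancers, and a peak says that the mark was enriched over the input, not how much RNA the gene made.

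With 1 list per genotype there was no spread between replicates, and no test of the genotype was made. A difference described below is a difference between the 2 lists, and the depth of the libraries was not given in the sources used here. Fold enrichment over input is the authors' value for each peak, and it was used to rank peaks within a list and not to compare the lists. Percentages carry exact Clopper-Pearson 95% intervals, which cover counting error only. The cell line was checked against marker genes: the mesenchymal-like markers VIM, CD44, EGFR, AXL and CAV1 each had a peak within 1 kb of a gene end or start in both lists. No such peak was found at the 4 blood and 3 endothelial markers, whereas of the 2 hepatocyte markers APOA1 had one in both lists (folds 6.64 and 6.85) and ALB had none. Of the 8 luminal markers, 5 had one in both lists, ESR1 had one in the knockout list alone, and PGR and CDH1 had none. The ESR1 peak was weak (fold 2.68, percentile 9.58 of the knockout list) and lay at a gene end, not within 1 kb of the start. Among the 7 fibroblast and mural markers, PDGFRB, FAP, ACTA2 and RGS5 had a peak in both lists, and PDGFRA, DCN and LUM had none. Peak lists measure neither ARID1A RNA nor protein, so they gave no check of the genotype label.

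Most acetylated regions of the collagen genes were found in both genotypes. Of the 238 regions, 162 were shared (68.1%, 61.7 to 73.9), against 65.7% of all regions of the 2 lists. Control-only regions numbered 34 (14.3%, 10.1 to 19.4), against 14.7% of all regions, and knockout-only regions numbered 42 (17.6%, 13.0 to 23.1), against 19.6%. All 3 genome-wide shares lay inside the collagen intervals, so the collagen genes as a group held genotype-only regions at about the rate of the genome. Counted as peaks, 167 of 201 control peaks in the windows overlapped a knockout peak (83.1%; 82.0% in the whole list), and 172 of 214 knockout peaks overlapped a control peak (80.4%; 77.6% in the whole list). One further control peak lay outside the windows and entered only by merging with a knockout peak. The regions were spread unevenly over the genes, with a median of 4 regions per gene and a maximum of 18. Of the 44 genes, 14 had more control-only than knockout-only regions, 14 had more knockout-only regions, 4 had equal numbers of each, 8 had shared regions alone and 4 had no region. Of all protein-coding genes, 29.8% had more control-only and 25.6% more knockout-only regions in the window. In that count a region can belong to several genes.

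**Figure D1:**
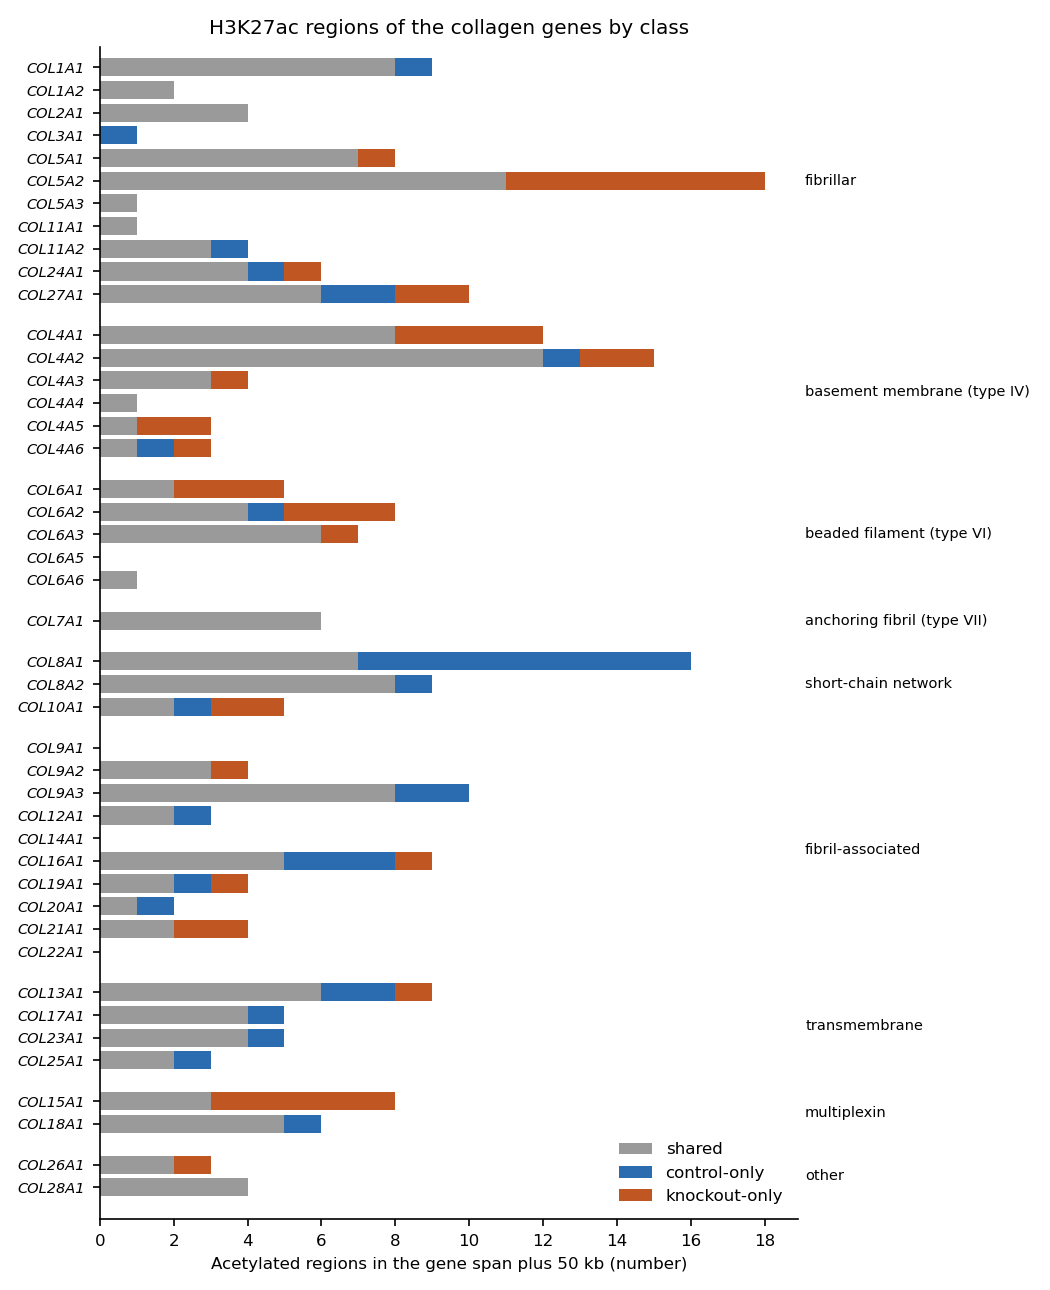
Number of H3K27ac regions given to each of the 44 collagen genes (horizontal axis), grouped by structural class and split into shared (grey), control-only (blue) and knockout-only (orange). COL8A1 holds 9 control-only regions and no knockout-only region, COL5A2 holds 7 knockout-only and COL15A1 5 knockout-only regions with no control-only region, and 4 genes have none of any kind.

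The share of shared regions differed by position. Regions within 1 kb of an end or start of a collagen gene were shared in 18 of 21 cases (85.7%, 63.7 to 97.0), and regions elsewhere in the gene body in 66 of 117 (56.4%, 46.9 to 65.6). The same shares over all regions of the lists were 91.9% at gene ends and 55.5% in gene bodies. In the flanks, 78 of 100 regions were shared (78.0%, 68.6 to 85.7), and 36 regions of the windows lay at an end of another gene, of which 34 were shared. Flank regions not at an end of another gene were shared in 47 of 67 cases (70.1%, 57.7 to 80.7). Over all regions of the lists, 58.1% of those between genes were shared, but flank regions can also lie inside other genes. For 66 of the 238 regions a protein-coding gene other than a collagen gene was closer. These were shared in 56 cases (84.8%, 73.9 to 92.5), against 106 of the 172 regions for which the collagen gene was the closest (61.6%, 53.9 to 68.9). Of all regions of the lists, 65.7% were shared.

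**Figure D2:**
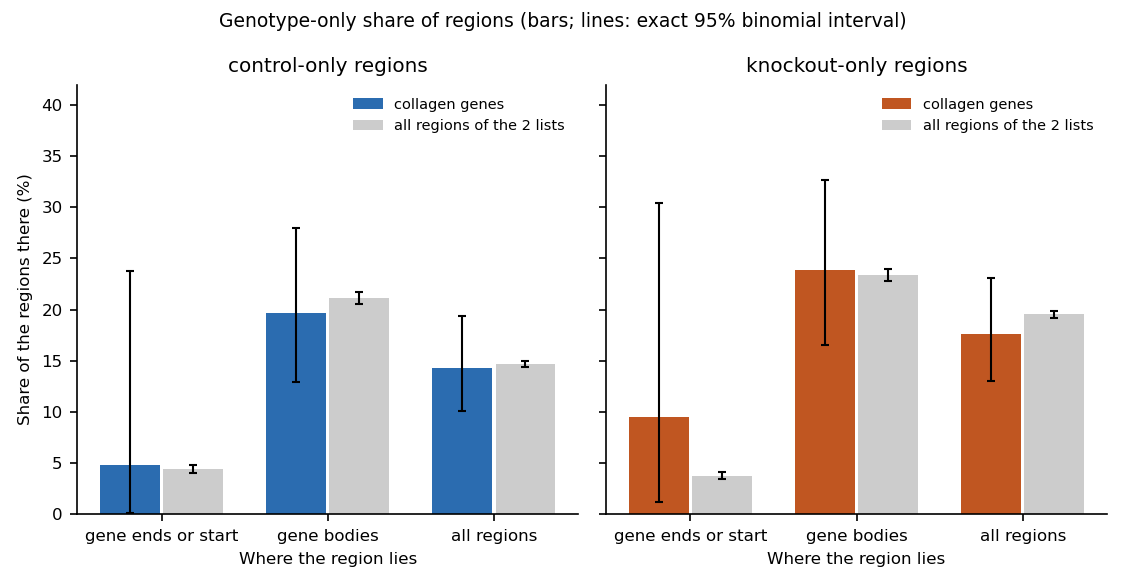
Percentage of regions that were control-only (left) or knockout-only (right) at gene ends or starts, in gene bodies and over all regions, for the collagen genes (coloured bars) and for all regions of both lists (grey bars), with exact 95% intervals as lines. In each position the grey bar lies inside the interval of the collagen bar, and in bodies the collagen shares are 19.7% control-only and 23.9% knockout-only.

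Genotype-only peaks of the collagen genes were weak and narrow. The 34 control-only peaks had folds from 2.3 to 4.23, with a median of 2.92, and their median percentile in the control list was 14.2 (16.4 for all control-only peaks). None reached the upper 50% of the list, where 0.623% of all regions were control-only peaks of that strength. The 42 knockout-only peaks had folds from 2.33 to 8.73, with a median of 3.55 and a median percentile of 28.0 in the knockout list (20.2 for all knockout-only peaks). Of these, 5 reached the upper 50% (2.10% of the 238 regions), against 1.48% of all regions. They lay at COL15A1 and COL6A1, with 2 each, and at COL5A2, with 1, and none reached the upper 25%. The median region width was 523 bp for control-only, 802 bp for knockout-only and 2353 bp for shared regions, against 673, 765 and 2135 bp over all regions.

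**Figure D3:**
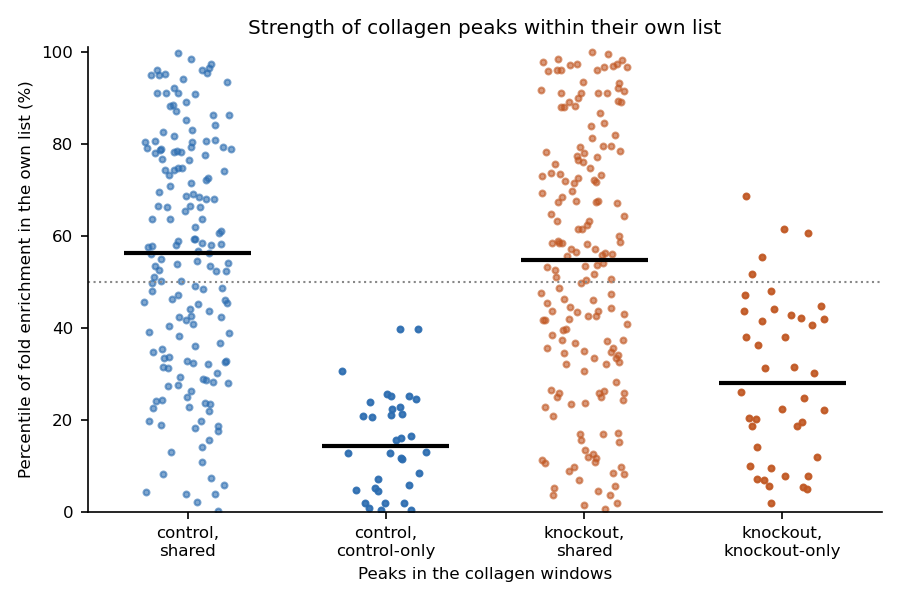
Percentile of each collagen peak's fold enrichment in its own list (vertical axis) for shared and genotype-only peaks, with a black line at the median and a dotted line at 50%. Control-only peaks reach no higher than 39.7, knockout-only peaks reach 68.7, and shared peaks have medians of 56.3 (control) and 54.8 (knockout).

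Presence or absence of a peak seldom differed between the lists. In the window, 39 genes had a peak in both lists (88.6%, 75.4 to 96.2; 85.8% of all protein-coding genes), and 1 gene, COL3A1, had one in the control list alone (1.79% of all genes). No gene had one in the knockout list alone (1.44% of all genes). COL6A5, COL9A1, COL14A1 and COL22A1, which encode a type VI chain and 3 fibril-associated chains, had no peak in either list (9.09%, 2.53 to 21.7; 11.0% of all genes). Within 1 kb of an annotated gene end or start, 20 of the 44 genes had a peak in both lists (45.5%, 30.4 to 61.2), below the 62.5% of all protein-coding genes, and 22 had one in neither (50%, 34.6 to 65.4; 34.0% of all genes). COL9A3 had one in the control list alone (1.83% of all genes) and COL16A1 in the knockout list alone (1.66%). The transcription start itself was given for 32 of the 44 genes. Of these, 14 had a start peak in both lists (43.8%, 26.4 to 62.3; 61.9% of all genes with a start), 16 in neither (50%; 35.3%), COL9A2 in the control list alone (1.49%) and COL16A1 in the knockout list alone (1.26%).

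Promoter stretches are given for the 2 genes with a start peak in 1 list and for genes whose start peaks ranked highest in both lists. They run 5′ to 3′ on the gene's strand, up to the base before the start, from RefSeq (GRCh38.p14, hg38). Capitals mark matches, on either strand, to the GC box GGGCGG (also as CCGCCC), the CCAAT box (also as ATTGG), the TATA box TATAAA, and CACCTG (also as CAGGTG), the E-box bound by SNAIL and ZEB. COL9A2 is at chr1:40317287-40317536 and COL16A1 at chr1:31704018-31704267, both on the minus strand. The COL9A2 stretch lay outside its control start peak, chr1:40311951-40316708. The COL16A1 stretch lay outside its knockout start peak, chr1:31704856-31705637. COL4A2 is at chr13:110307158-110307283 on the plus strand, and this stretch is also the whole interval to the start of COL4A1 on the other strand. COL6A2 is at chr21:46097862-46098111 and COL13A1 at chr10:69801656-69801905, both on the plus strand.
COL9A2: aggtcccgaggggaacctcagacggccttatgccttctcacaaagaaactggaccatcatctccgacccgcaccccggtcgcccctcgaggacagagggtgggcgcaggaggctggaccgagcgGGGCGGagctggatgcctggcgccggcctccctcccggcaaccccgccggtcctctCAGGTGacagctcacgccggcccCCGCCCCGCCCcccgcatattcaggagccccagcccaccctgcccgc
COL16A1: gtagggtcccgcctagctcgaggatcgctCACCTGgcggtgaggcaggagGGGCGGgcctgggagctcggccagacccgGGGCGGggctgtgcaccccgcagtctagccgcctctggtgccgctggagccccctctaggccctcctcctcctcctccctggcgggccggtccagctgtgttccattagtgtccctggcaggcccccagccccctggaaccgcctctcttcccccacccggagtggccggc
COL4A2: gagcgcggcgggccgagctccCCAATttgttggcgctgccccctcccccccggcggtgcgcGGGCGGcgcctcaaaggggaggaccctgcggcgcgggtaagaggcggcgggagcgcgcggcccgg
COL6A2: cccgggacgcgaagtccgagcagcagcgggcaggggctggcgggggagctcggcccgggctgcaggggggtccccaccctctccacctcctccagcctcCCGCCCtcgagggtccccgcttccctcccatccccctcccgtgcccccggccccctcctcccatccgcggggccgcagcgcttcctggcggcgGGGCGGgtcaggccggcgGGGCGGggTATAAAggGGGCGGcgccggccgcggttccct
COL13A1: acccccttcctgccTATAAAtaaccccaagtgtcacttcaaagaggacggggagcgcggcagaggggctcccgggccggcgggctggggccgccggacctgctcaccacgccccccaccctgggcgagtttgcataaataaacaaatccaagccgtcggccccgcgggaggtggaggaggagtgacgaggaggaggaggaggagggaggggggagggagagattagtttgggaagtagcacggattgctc

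COL9A2 and COL16A1, whose start peaks lay in opposite lists, each held the GC box and 1 CACCTG match outside those peaks. COL6A2 held 4 GC boxes with a TATA box. In the 250 bases upstream of the start, the GC box was present at 18 of 32 collagen genes (56.2%) and at 56.0% of 15811 promoters, CCAAT at 9 (28.1%; 34.4%), TATAAA at 5 (15.6%; 9.25%) and CACCTG at 5 (15.6%; 17.1%). TGANTCA, the AP-1 motif, was found at none of the 32 (5.05% of all), and GGAATG, bound by TEAD factors, at COL12A1 alone (10.1% of all). Some matches overlap, as in adjoining GC boxes, and a match is only a run of letters. The 16 collagen promoters with no start peak in either list were GC-rich, with a median of 64.0% G and C and 12 CpG dinucleotides, close to the 65.4% and below the 18.5 CpG of the 14 with a start peak in both. Over all genes the medians were 53.6% and 5.0 CpG without a start peak and 65.6% and 22 CpG with one.

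Fibrillar collagen genes, which encode the chains of the banded fibrils of interstitial matrix, held 64 regions in 11 genes: 47 shared, 6 control-only (9.38%, 3.52 to 19.3) and 11 knockout-only (17.2%, 8.9 to 28.7). The shares of all regions, 14.7% and 19.6%, lay inside both intervals. Their summed peak length was 108 kb in the control list and 118 kb in the knockout list. At the ends or start, 5 of the 11 genes had a peak in both lists and 6 in neither. COL1A1, which encodes the α1 chain of type I collagen, had a shared peak at its higher-coordinate end, of 2.14 kb in the control (fold 9.05) and 2.02 kb in the knockout (fold 11.0). Its window held 21.6 and 20.2 kb of peaks, of which 7.65 and 6.11 kb lay in 1 region at an end of the neighbour PPP1R9B. COL1A2, which encodes the partner α2 chain, had no peak inside the gene in either list. Its 2 shared regions lay 1.92 and 18.3 kb away. COL3A1, a fibrillar collagen of distensible tissues, had a single region in the gene body, a control-only peak of 527 bp with fold 2.58, at percentile 4.55 of its list.

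COL5A2, which encodes a chain of type V collagen that sits in the core of type I fibrils, had 18 regions, the most of any member. Of these, 11 were shared and 7 knockout-only, and summed length was 21.5 kb in the control and 28.4 kb in the knockout list. The knockout-only peaks were spread over 307 kb of the gene body with folds from 2.33 to 6.96. The strongest, at chr2:189221425-189222984 (1560 bp), stood at percentile 60.5 of the knockout list, and the nearest control peak was 9.39 kb away. Stronger shared regions lay close by, at chr2:189203037-189205505 with folds of 13.0 and 21.0 and at chr2:189209122-189212543 with folds of 13.8 and 13.5. As many knockout-only regions in the window, or more, were found at 71 of all genes (0.356%), COL5A2 included. This count, like the others of its kind below, was not adjusted for gene length, and COL5A2 spans 409 kb. With only peaks of −log10 q of at least 5 kept in both lists, COL5A2 had 4 knockout-only regions and 1 control-only region. The 4 included chr2:189407305-189408128, a shared region whose control peak, with −log10 q of 1.47, was dropped. The control-only region, chr2:189373702-189375339, had also been shared, and its knockout peak had a −log10 q of 4.56. The peak at its higher-coordinate end was also at an end of WDR75, a gene that abuts it.

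COL5A1, which encodes the major type V chain, had a start peak in both lists (folds 6.21 and 11.7), 7 shared regions, 1 knockout-only region, and 14.2 kb against 19.7 kb of peaks. COL27A1, a fibrillar collagen of cartilage, had the highest-ranking start peak of the class, with folds of 9.95 and 17.0. It held 6 shared, 2 control-only and 2 knockout-only regions, and 16.8 kb of peaks in the control list against 22.5 kb in the knockout list. Both knockout-only regions were in the gene body, and both control-only regions were in the flank. COL11A1, often described as a marker of cancer-associated fibroblasts, had 1 shared region of 2.85 kb in the control and 1.21 kb in the knockout and no start peak.

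The 6 type IV genes, whose products form the network of basement membranes, all had a peak at an end or start in both lists, as did COL7A1, the single type VII gene. The type IV genes are arranged as 3 head-to-head pairs, each pair with 1 shared acetylated region over both starts. The starts were 127 bp apart for COL4A1 and COL4A2, 419 bp for COL4A3 and COL4A4, and 380 bp for COL4A5 and COL4A6, so the 6 genes represent 3 start regions and not 6 separate observations. The class held 38 regions, of which 26 were shared, 2 control-only and 10 knockout-only (26.3%, 13.4 to 43.1), an interval that includes the 19.6% of all regions. Summed peak length was 76.0 kb in the control and 87.9 kb in the knockout list.

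COL4A1 and COL4A2 encode the chains present in nearly all basement membranes. The region over their starts, chr13:110306107-110311742, was 1 control peak of 5.64 kb with fold 12 (percentile 86.3) and 1 knockout peak of 3.15 kb with fold 18.5 (percentile 93.3). COL4A2 had the longest summed length of all members with both lists added (96.1 kb), 47.0 kb in the control and 49.1 kb in the knockout list, from 12 shared regions, 1 control-only and 2 knockout-only. Most of it lay in the gene body, including a region of 11.9 kb at chr13:110386887-110398747. COL4A1 had 8 shared and 4 knockout-only regions, and 21.2 kb against 22.6 kb. Those 4 peaks were weak (folds 2.69 to 3.73), and 3 of them remained knockout-only with −log10 q of at least 5. None remained when each list was limited to its top 25000 peaks, which left 1 control-only region at COL4A1.

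COL4A3 and COL4A4, chains of kidney and other specialised basement membranes, shared a start region with folds of 7.06 and 5.56. COL4A5 and COL4A6, the X-linked chains, shared one with folds of 5.45 and 6.37. At COL4A5 the start region and 2 knockout-only regions in the body gave 1.36 kb in the control and 3.43 kb in the knockout list. COL4A6 had 1.06 kb and 4.46 kb, and nearly all of the difference lay in 1 shared region in the gene body, chrX:108396233-108400075, which was 0.292 kb long in the control and 3.84 kb in the knockout list.

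Type VI genes, whose products assemble into beaded filaments close to cells, had nearly double the peak length in the knockout list: 21.8 kb against 42.2 kb, a ratio of 1.93, where the whole lists stood at 1.03. Most of this length lay in the flanks. Regions in the gene or at its ends held 1.99 kb in the control and 2.93 kb in the knockout list at COL6A1, and 2.6 and 3.42 kb at COL6A2. COL6A3, COL6A5 and COL6A6 had no such region. Of 21 regions of the class, 13 were shared, 1 was control-only and 7 were knockout-only (33.3%, 14.6 to 57.0). The interval includes the genome's 19.6%. COL6A1 and COL6A2, neighbours on chromosome 21 that encode the α1 and α2 chains, each had a peak at the lower-coordinate end in both lists. Its folds were 8.0 in the control and 16.9 in the knockout list at COL6A1, and 9.48 and 25.7 at COL6A2.

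Between COL6A1 and COL6A2 lay 5 knockout-only regions within 20.3 kb, at chr21:46038581-46058873. Their folds, in order along the chromosome, were 7.12, 8.73, 5.01, 4.60 and 2.51, and the first 2 stood at percentiles 61.4 and 68.7 of the knockout list. The first 2 were closest to COL6A1 and the other 3 to COL6A2, and all lay between 33.5 and 43.9 kb from the gene to which they were given. The nearest control peak was 20.5 kb from the first and 1.31 kb from the last. None of the 5 was counted with windows of 10 kb, which do not reach them. The same interval also held a shared region at chr21:46059966-46062260 (folds 8.94 and 15.2) and a control-only region at chr21:46081542-46081975 (fold 2.98). The last of the 5, with a −log10 q of 1.36, and the control-only peak, with 1.82, were not kept at −log10 q of at least 5. Summed length was 7.59 kb in the control and 13.9 kb in the knockout list for COL6A1, and 5.45 and 10.1 kb for COL6A2.

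COL6A3, which encodes the large α3 chain, had no peak inside the gene in either list. Its 6 shared regions and 1 knockout-only region all lay in the flanks, and summed to 8.14 kb in the control and 17.1 kb in the knockout list. The largest part of that difference came from chr2:237430145-237435620, 16.0 kb beyond the start, which was 0.512 kb long in the control and 5.48 kb in the knockout list. COL6A6, a chain that can take the place of α3, had 1 shared region 49.5 kb away.

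COL7A1, the only gene of type VII collagen, which forms the anchoring fibrils below epithelia, had 6 regions, all shared. Summed length was 19.4 kb in the control and 18.9 kb in the knockout list. The start peak had folds of 5.78 and 7.48. The stronger peak at its other end, with folds of 16.0 and 9.56, also lay at ends of PFKFB4 and UCN2.

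**Figure D4:**
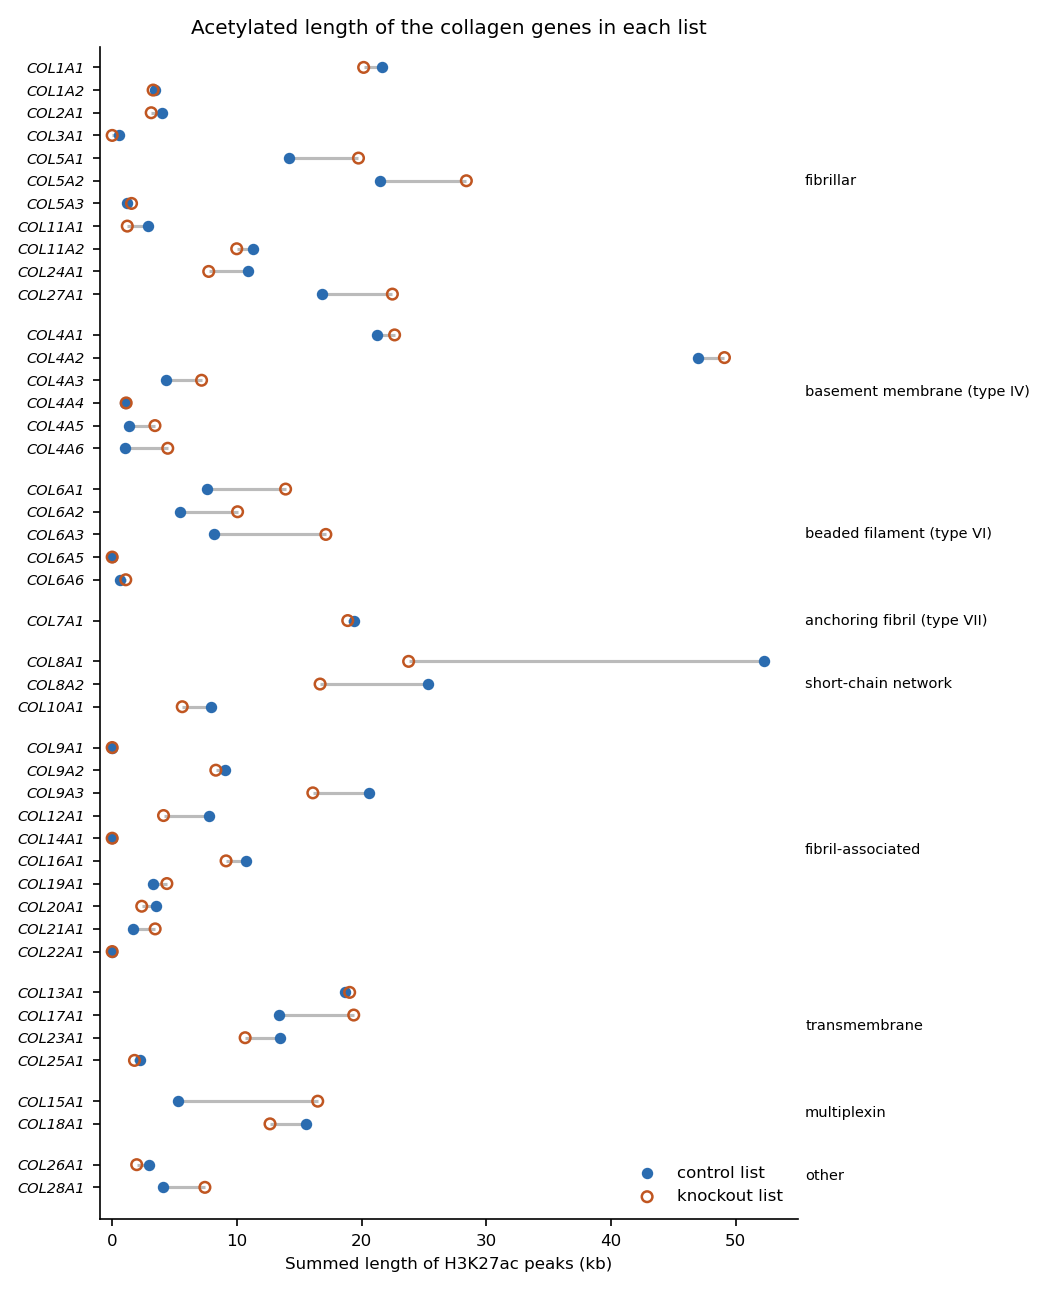
Summed length of H3K27ac peaks in kb (horizontal axis) given to each collagen gene in the control list (filled blue) and the knockout list (open orange), grouped by structural class. COL8A1 stands apart with 52.3 kb in the control and 23.8 kb in the knockout list, and COL15A1 and the type VI genes COL6A1, COL6A2 and COL6A3 lie further right in the knockout list.

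COL8A1, which encodes a chain of the short-chain type VIII network collagen of vessel walls and the eye, showed the largest difference in peak length of the 44 genes. Its peaks covered 52.3 kb in the control and 23.8 kb in the knockout list, 2.2 times as much in the control. It had 7 shared and 9 control-only regions and no knockout-only region. The region at the lower-coordinate end, chr3:99633461-99663431, was 1 control peak of 30 kb (fold 8.30) and 6 separate knockout peaks that covered 15.0 kb (highest fold 11.5). The next shared region, chr3:99665082-99671134, was 6.05 kb long in the control and 1.90 kb in the knockout list.

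Of the 9 control-only regions of COL8A1, 8 followed within the gene body over 75.7 kb, at chr3:99673040-99748700. They were among the weakest peaks of the control list, with folds from 2.31 to 2.68 and percentiles from 0.402 to 7.15. The ninth, in the flank, had fold 3.38. No control-only region remained at COL8A1 with −log10 q of at least 5, or with the top 25000 peaks of each list. Each of these settings left 1 knockout-only region there. At −log10 q of at least 5 the length at COL8A1 was 34.7 kb in the control and 17.4 kb in the knockout list. As many control-only regions in the window, or more, were found at 11 of all genes (0.0551%), COL8A1 included. COL8A1 alone held 26.5% of the control-only regions of the collagen genes, and 25 were left without it.

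**Figure D5:**
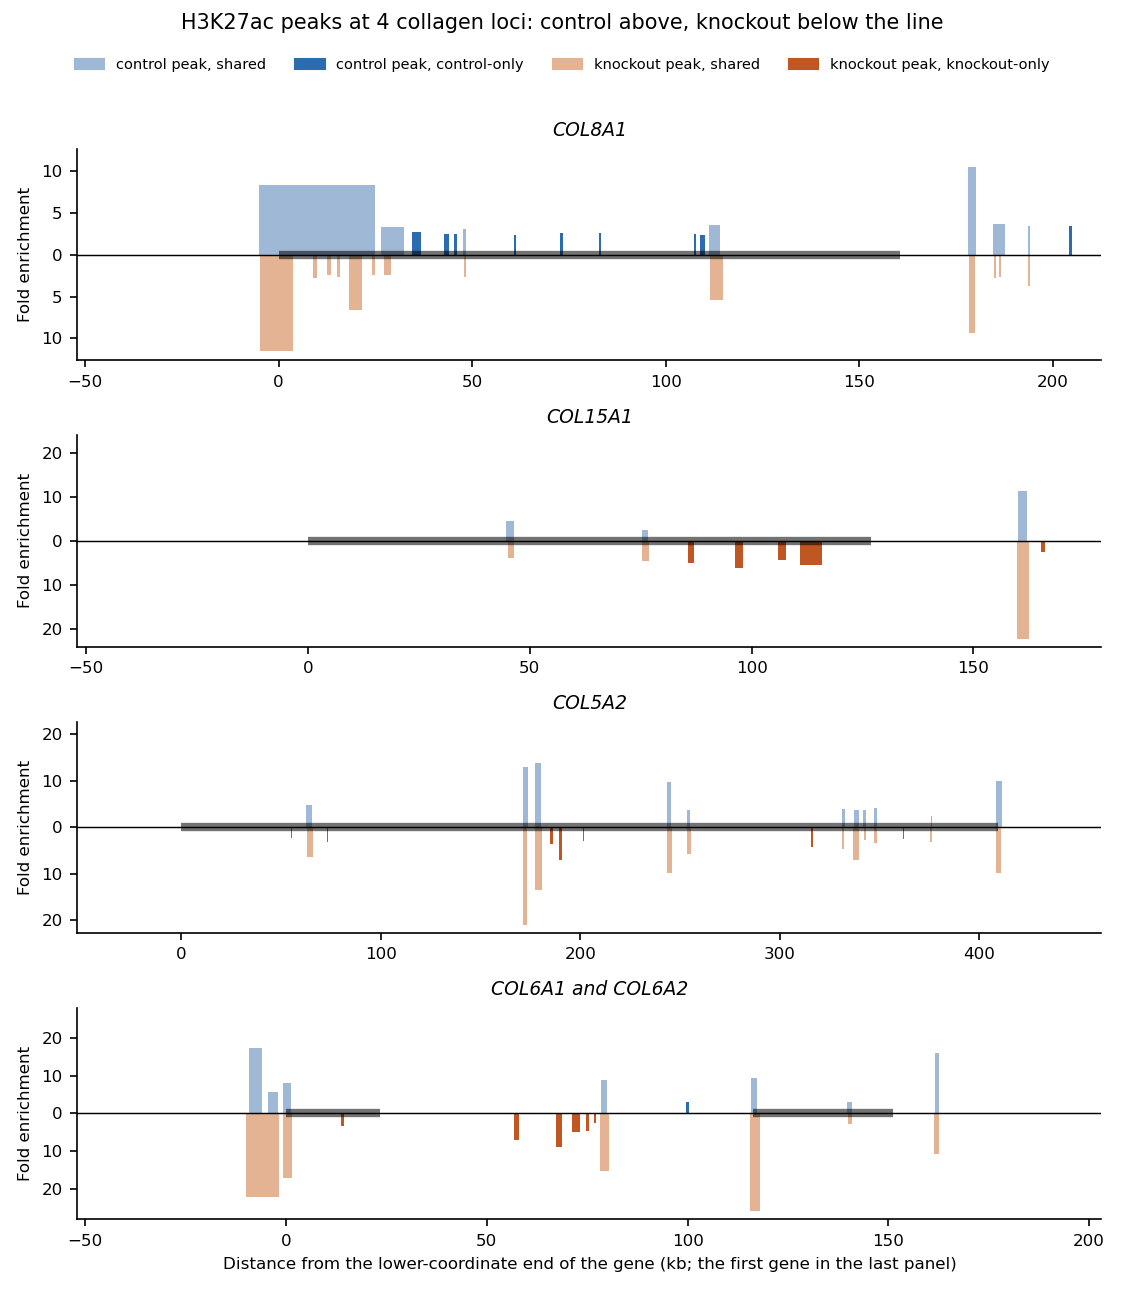
Peaks at 4 collagen loci by distance in kb from the lower-coordinate end of the gene (horizontal axis), with control peaks above and knockout peaks below the line, bar height giving the fold enrichment in the own list, dark bars marking genotype-only peaks and the black bar on the line the gene span. At COL8A1 a control peak of 30 kb faces 6 knockout peaks, and at COL15A1 and between COL6A1 and COL6A2 runs of 4 and 5 knockout peaks have no control peak opposite.

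COL8A2, which encodes the other type VIII chain, was also longer in the control list, at 25.3 kb against 16.7 kb, with 8 shared regions and 1 control-only region. It had no peak at an end or start, and most of its length lay at the neighbours TRAPPC3 and MAP7D1. COL10A1, the collagen of hypertrophic cartilage, had 2 shared, 1 control-only and 2 knockout-only regions. Its control-only region and a knockout-only region lay 0.248 kb apart, inside FRK, so that these 2 calls rest on where each list placed neighbouring peaks. As a class the short-chain genes held 30 regions: 17 shared, 11 control-only (36.7%, 19.9 to 56.1; 14.7% of all regions) and 2 knockout-only (6.67%, 0.818 to 22.1; 19.6%). COL8A1 supplied 9 of the 11.

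Fibril-associated collagens, which lie on the surface of fibrils or link them to other matrix, held 36 regions in 10 genes: 23 shared, 8 control-only (22.2%, 10.1 to 39.2; 14.7% of all regions) and 5 knockout-only (13.9%, 4.67 to 29.5; 19.6%). Summed length was 56.5 kb in the control and 47.9 kb in the knockout list, and 3 of the 10 genes had no peak. All 3 genes counted above with an end or start peak in 1 list alone fell in this class. At COL16A1 a knockout-only peak of 782 bp with fold 4.53 (percentile 42.1) lay 0.839 kb from the start, and control-only peaks with folds of 3.35 and 3.25 lay 3.49 and 8.43 kb from it. The remaining control-only peak, with fold 3.19, was in the gene body. At COL9A3 a control-only peak of 396 bp lay 0.780 kb from the lower-coordinate end, with fold 2.3 at percentile 0.327, and 2 regions inside the gene were shared. At COL9A2 the control peak, with fold 3.75, ended 0.578 kb from the start. The overlapping knockout peak, with fold 4.42, stopped more than 1 kb short of it, so that the region was shared and the start peak was not. A knockout-only peak of 645 bp, with fold 3.37 (percentile 24.7), lay 0.276 kb from the lower-coordinate end of COL9A2. The gene was therefore counted with an end or start peak in both lists, although these peaks lay at opposite ends. The COL9A3 peak was not kept with −log10 q of at least 5, and within 2 kb COL16A1 had a peak in both lists, from a shared region 1.82 kb inside the start.

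COL12A1, which encodes a fibril-associated collagen of tendon and other tissue under load, had the strongest control start peak of this class. The region was 4.03 kb long in the control (fold 8.99, percentile 74.3) and 1.48 kb in the knockout list (fold 3.45, percentile 26.3). When each list was limited to its top 25000 peaks, this peak was left in the control list alone. COL9A3 had the longest summed length of the class, at 20.6 kb against 16.1 kb, with 8 shared and 2 control-only regions. Its largest regions, of 5.07 and 5.48 kb, lay at ends of MRGBP and OGFR. COL19A1 had a start peak in both lists, with folds of 4.44 and 6.55, and COL21A1 had 2 shared and 2 knockout-only regions in its body.

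Transmembrane collagens, which are anchored in the cell membrane, held 22 regions in 4 genes: 16 shared, 5 control-only (22.7%, 7.82 to 45.4; 14.7% of all regions) and 1 knockout-only (4.55%, 0.115 to 22.8; 19.6%). COL13A1, found at cell adhesion sites, was the 1 gene of the 4 with a start peak, of 7.41 kb in the control (fold 10.3) and 7.31 kb in the knockout list (fold 14.6). Its 9 regions, with 18.7 kb and 19.0 kb of peaks, included 2 control-only and 1 knockout-only region in the gene body. COL17A1, a component of hemidesmosomes, had no start peak. Its 13.4 kb of control and 19.4 kb of knockout peaks lay in a body region of 5.31 and 6.82 kb, 3 shared flank regions and a control-only body peak of 0.456 kb.

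COL15A1 and COL18A1 encode the multiplexins, basement membrane collagens whose C-terminal ends can be released as restin and endostatin. COL15A1 had 3 shared and 5 knockout-only regions and no control-only region, and its peaks covered 5.28 kb in the control and 16.5 kb in the knockout list, a ratio of 3.12. Neither list had a peak at its start. Of the 5 knockout-only regions, 4 lay in the gene body, at chr9:99029559-99030838, chr9:99040235-99041955, chr9:99049808-99051635 and chr9:99054840-99059738. Their folds were 5.11, 6.09, 4.39 and 5.55, at percentiles 48.0, 55.4, 40.5 and 51.6 of the knockout list, and the last was 4.90 kb long. The nearest control peaks were 9.03 to 34.3 kb away. The fifth, with fold 2.58, lay inside the neighbouring gene TGFBR1. With −log10 q of at least 5 the count of knockout-only regions at COL15A1 was again 5, though not the same 5. The 4 body regions stayed, and the fifth dropped out. The shared region chr9:99019139-99020844 was then counted as knockout-only, as its control peak had a −log10 q of 2.4. With the top 25000 peaks of each list the count was 4, with 1 control-only region. At least 5 knockout-only regions were found in the window of 253 of all genes (1.27%).

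COL18A1 showed no such pattern, with 5 shared regions, 1 control-only region, and 15.6 kb against 12.7 kb of peaks. Its start peak had folds of 8.55 and 6.86. The highest-ranking peak of all collagen windows, at chr21:45362849-45367765 and 37.4 kb from this start, had folds of 26.2 in the control and 42.1 in the knockout list, at percentiles 99.7 and 100. The remaining genes, COL26A1 and COL28A1, had no peak at an end or start. COL28A1 had 4 shared regions and 4.10 kb against 7.43 kb of peaks, because a shared body region was 0.954 kb long in the control and 4.10 kb in the knockout list.

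In summed length over all members, differences in both directions nearly cancelled. The 44 genes had 443 kb of peaks in the control and 450 kb in the knockout list, a ratio of 1.02 where the whole lists had 1.03 (87.1 and 89.7 Mb). Of the 40 genes with a peak, 20 were longer in each list. The ratio passed 1.5 in favour of the knockout list at 10 genes and in favour of the control list at 4. These gene counts have no share over all genes beside them, so they cannot be read as a trait of the collagens. Among the 162 shared regions, 76 were longer in the control (46.9%; 49.3% of all shared regions) and 86 in the knockout list. At least 2 times as long in the control were 16 (9.88%; 6.31% of all shared regions), and 14 in the knockout (8.64%; 8.05%).

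The genes of collagen synthesis, secretion and binding were examined in the same way, as the partners that collagen chains need. Of 37 genes outside the collagen family, 28 had a peak at an end or start in both lists (62.5% of all protein-coding genes), 9 in neither (34.0% of all genes) and none in 1 list alone (1.83% control, 1.66% knockout). All 5 lysyl hydroxylases and glycosyltransferases, 5 chaperones and 5 secretion factors had one in both lists, as did 8 of 9 genes of prolyl hydroxylation. Folds were 17.0 and 21.5 at SERPINH1, the collagen chaperone HSP47, and 16.6 and 26.9 at P4HB, a subunit of prolyl 4-hydroxylase. Among 8 genes of propeptide removal, BMP1, PCOLCE2, ADAMTS3 and ADAMTS14 had one, and of 5 receptors MRC2 alone did. Of their 213 regions, 153 were shared (71.8%, 65.3 to 77.8; 65.7% of all regions) and 32 control-only (15.0%, 10.5 to 20.5; 14.7%). Knockout-only regions numbered 28 (13.1%, 8.92 to 18.4), below the 19.6% of all regions. P3H2, a prolyl 3-hydroxylase active on basement membrane collagen, had 5 knockout-only regions, a number reached in the window of 1.27% of all genes, and DDR2, a receptor for fibrillar collagen, had 4, reached by 2.54%. No knockout-only peak at P3H2 or DDR2 had a fold above 4.17. Knockout-only peaks in the upper 50% of their list lay near PLOD3 (fold 8.13, percentile 66.2) and SERPINH1 (5.8, 53.4). Control-only peaks of that strength lay near SERPINH1 (5.52, 53.0) and in TLL2 (5.48, 52.7). Over all regions, 1.48% were knockout-only and 0.623% control-only peaks of that strength.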

How the data were processed

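H3K27ac was profiled in 8 libraries, 2 inputs and 2 immunoprecipitates for each genotype. The submitters' processing notes name Bowtie2 2.3.5.1, MACS2 2.2.6 and the build hg38. Options, read filters, depth and pooling of replicates are not given in the sources used here. The authors deposited for each peak, per the file headers, its position, its pileup (a coverage signal), the −log10 of its q-value, and its fold enrichment (a ratio). The pileup entered no result.

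Only chromosomes 1 to 22 and X were kept, which left out 14 peaks. Peaks overlapping by at least 1 bp were merged into regions in Python 3.11.15 with pandas 2.3.3 and scipy 1.17.1, tested on simulated data with known classes. A region went to the closest collagen gene. Gene spans and starts came from RefSeq on GRCh38.p14. Starts were given for 32 members and for 15811 genes, so both annotated ends and the start (within 1 kb) were used for all genes. Strong meant the upper 50% of a list by fold.

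Members, gene lists and rules were chosen with earlier results of these data known. Named with values were genes with an end or start peak in 1 list, genes with a strong genotype-only region, the 10 longest by summed peaks, the 3 genes with the most control-only and knockout-only regions, the strongest end or start peak of each class and genes without a peak. Other genes named were added for their values or roles. One further marker gene is not reported here. Promoters shown are those of genes with a start peak in 1 list and the 4 highest-ranking, where COL13A1 stands for COL27A1, whose start lies inside its annotated span. Alternatives were window size, overlap, a −log10 q of at least 5, the top 25000 peaks and other definitions given in the closing section.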

Additional observations from a re-analysis of the deposited data

How the results depend on the processing

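No paired analysis was possible because each genotype had 1 peak list, and no replicate could be left out for the same reason. Requiring an overlap of 50% of the shorter peak, or counting a peak within 1 kb as shared, kept every class count of the collagen regions within 1.5 times. With −log10 q of at least 5, 118 regions were shared, control-only regions fell from 34 to 11 and knockout-only regions numbered 44. Over all regions kept at that setting, 8.06% were control-only and 21.7% knockout-only. No gene then had a control peak alone at its ends (0), and ADAMTS14 and MIA2 were the 2 biosynthesis genes with a knockout peak alone. With the top 25000 peaks of each list the counts were 99 shared, 18 control-only and 25 knockout-only. Over all regions kept there, 14.5% were control-only and 14.0% knockout-only. At both settings the collagen regions had a higher knockout-only share and a lower control-only share than all regions. In the main counts both shares were lower. Windows of the gene span alone gave 83 shared regions, 9 genes without a region, and 242 kb of control and 244 kb of knockout peaks. Windows of 10 kb gave 102 shared regions, and windows of 100 kb gave 253 shared, 54 control-only and 66 knockout-only regions and 2 genes without a region. Leaving out regions closer to another gene left 106 shared regions. Within 2 kb of ends and starts, 2 genes (COL9A3 and COL1A2) had a control peak alone and 0 a knockout peak alone. The COL1A2 peak belonged to a shared region 1.92 kb from the gene, whose knockout peak stopped just beyond the 2 kb limit. No knockout-only region (0 against 5) lay in the upper 25% of its list. Without COL8A1, a choice made after seeing the data, 25 control-only and 42 knockout-only regions were counted. Of the values that answer a comparison, 38 alternatives stayed within 1.5 times and 19 moved beyond it; for single genes these were 98 and 34. The causes were not tested, beyond the smaller number of peaks or of bases that an alternative keeps. Unknown depth limits every absence of a peak: a weak peak may fall below the threshold in 1 list.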

Other observations

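Genes with a collagen-like domain outside the collagen family, chosen after seeing the data, were examined as a further group of 27. Of these, 8 had a peak within 1 kb of an end or start in both lists (62.5% of all protein-coding genes), 1 in the control list alone (1.83%), 2 in the knockout list alone (1.66%) and 16 in neither (34.0%). The 8 included C1QTNF6, a C1q-related secreted protein, with folds of 17.6 in the control and 21.5 in the knockout list, and EMILIN1, a glycoprotein of elastic fibres, with 10.7 and 18.5. CTHRC1, a secreted protein of matrix-producing cells, had folds of 4.36 and 5.28. C1QL4 had a control peak alone, with fold 2.70. COLEC10, a collectin, and EMID1 had a knockout peak alone, with folds of 4.21 and 2.92. None of the complement genes C1QA, C1QB and C1QC had a peak at an end or start in either list.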
